A study of Mus musculus with 6 samples.

Results

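The genes described here encode the protein folding and disposal machinery of the endoplasmic reticulum (ER): its chaperones, its disulfide-forming enzymes, the sensors of unfolded protein and the factors of ER-associated degradation (ERAD). They are a list of 38 named genes, grouped by function, out of 19937 genes with a level on these arrays. All 38 were measured, and none lay among the lowest 20% of array values on every array. They were compared between Sox17-GOF islets (genotype Ins2-rtTA;tetO-Sox17) and control islets (genotype Ins2-rtTA), with 3 arrays in each group. All mice were 16-week-old males that received doxycycline in food and water for 24 hours, from an outbred stock crossed back to C57BL/6 for at least 3 generations. By the genotype labels the controls had the rtTA activator as well as the doxycycline, while the study gives tetO-Sox17 mice, which lack the activator, as controls of another doxycycline experiment. In Sox17-GOF mice the activator, driven by the Ins2 promoter, turns the tetO-Sox17 transgene on in β cells, while the RNA came from whole isolated islets with all their cell types. The methods describe the 3 samples of a group as independent biological samples, and how many mice made up a sample was not given in the sources used here. RNA was amplified with a kit for small amounts and hybridized to Affymetrix Mouse Gene ST arrays. Levels are log2 values after RMA, in which a difference of 1 is a 2-fold change, and they can be compared between arrays for 1 gene but not between genes.

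β cells make proinsulin in large amounts, and each molecule must form its disulfide bonds in the ER before it can leave. BiP and other chaperones hold unfolded chains, disulfide isomerases with the ERO1 oxidases form and reshuffle the bonds, and chains that fail are pulled back to the cytosol through the HRD1 complex and degraded. When unfolded chains accumulate, the membrane sensors IRE1α (Ern1), ATF6 and PERK start the unfolded protein response. IRE1α splices the Xbp1 mRNA, ATF6 is cut in the Golgi to release a transcription factor, and both arms induce many of the genes listed here. Through ATF6 and XBP1 they act on short promoter elements, which include the ER stress response element (ERSE), ERSE-II and the unfolded protein response element (UPRE).

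These elements were looked for on both strands of the RefSeq promoter windows (assembly GRCm38.p6), which run from 250 bases before to 50 bases after a gene's start. There were 36 windows for 33 of the genes. Atf6, Hyou1, Manf, Derl1 and Erlec1 had none. The ERSE letters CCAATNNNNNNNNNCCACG stood in 10 of the 36 windows (27.8%), against 39 of 32851 windows of all genes (0.119%). The 10 genes were Calr, Canx, Creld2, Derl3, Dnajc3, Ero1b, Hsp90b1, Hspa5, Pdia6 and Syvn1. ERSE-II, which is ATTGG and CCACG with any 1 base between them, stood in 2 windows (5.56%, Herpud1 and Dnajb11) and in 0.0365% of all windows. All elements were searched by exact letters, so a window without a match can still hold a variant. UPRE was searched only as the letters TGACGTGG. These letters stood in the Txndc5 window only (2.78%), and in 0.676% of all windows. ERSE-II has the same CCAAT and CCACG boxes as ERSE with the first on the other strand, and no matches overlapped in the windows of these genes. AACAAT, a core sequence that SOX proteins are known to bind, was found in 1 of the 36 windows (2.78%, Os9), against 10.7% of all windows. A match describes letters in a window and not a bound site. Because the unfolded protein response induces many of these genes, the share of windows with ERSE is a description and not a test.

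The 250 bases before the start are shown for the 3 genes of the list that were lower in Sox17-GOF islets, Herpud1, Ern1 and Wfs1, and for Hspa5 and Hsp90b1, the main ER chaperones, which carry ERSE and did not pass the test. Capitals mark the fixed letters of ERSE or ERSE-II. In Herpud1 (chr8:94386179-94386428, plus strand) the ERSE-II match ran from 52 to 42 bases before the start. In Hspa5 (chr2:34771840-34772089, plus strand) the ERSE match ran from 65 to 47 bases before the start. Hsp90b1 (chr10:86705445-86705694, minus strand) held ERSE at 212 to 194 bases before the start and again at 107 to 89, the second on the opposite strand. The windows of Ern1 (chr11:106487797-106488046, minus strand) and Wfs1 (chr5:36988983-36989232, minus strand) held none of the 4 sequences searched.
Herpud1: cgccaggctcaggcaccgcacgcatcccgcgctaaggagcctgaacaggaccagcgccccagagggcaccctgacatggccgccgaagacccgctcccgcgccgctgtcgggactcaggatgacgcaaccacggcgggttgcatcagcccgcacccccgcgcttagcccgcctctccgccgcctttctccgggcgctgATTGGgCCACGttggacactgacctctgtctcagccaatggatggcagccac
Ern1: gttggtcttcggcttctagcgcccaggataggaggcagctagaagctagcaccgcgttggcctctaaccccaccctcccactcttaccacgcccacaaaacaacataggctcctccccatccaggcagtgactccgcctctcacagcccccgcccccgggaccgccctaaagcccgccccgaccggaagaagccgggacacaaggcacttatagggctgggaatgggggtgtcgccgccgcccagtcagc
Wfs1: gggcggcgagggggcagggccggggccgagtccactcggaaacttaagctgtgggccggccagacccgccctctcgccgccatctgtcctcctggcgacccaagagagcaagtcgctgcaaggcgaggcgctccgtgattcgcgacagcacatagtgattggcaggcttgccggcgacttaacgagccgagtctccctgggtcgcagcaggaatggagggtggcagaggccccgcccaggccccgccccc
Hspa5: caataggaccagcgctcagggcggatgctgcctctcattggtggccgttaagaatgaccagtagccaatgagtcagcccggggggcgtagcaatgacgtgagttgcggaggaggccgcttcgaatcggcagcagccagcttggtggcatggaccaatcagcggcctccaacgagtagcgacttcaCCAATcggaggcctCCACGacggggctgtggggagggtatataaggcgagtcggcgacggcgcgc
Hsp90b1: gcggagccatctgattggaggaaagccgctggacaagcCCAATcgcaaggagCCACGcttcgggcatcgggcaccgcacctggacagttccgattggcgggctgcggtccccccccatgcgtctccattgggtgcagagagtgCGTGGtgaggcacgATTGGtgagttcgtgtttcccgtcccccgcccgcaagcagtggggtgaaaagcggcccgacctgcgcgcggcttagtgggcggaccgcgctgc

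The arrays were first checked against their labels. Sox17 itself read 6.35, 6.22 and 6.36 in Sox17-GOF islets, against 5.50, 5.72 and 5.71 in control islets, a 1.59-fold difference (log2 fold change 0.67 ± 0.09 SE, limma adjusted p = 0.00876). The exact two-sided permutation test gave p = 0.10, the smallest that 3 against 3 allows, and it was not tested whether the probe set detects transcripts of the transgene. Ins2 read 13.02 to 13.12 in Sox17-GOF and 13.03 to 13.12 in control islets. Of 9 β cell markers 5 were lower. The summed signal of all 9 was log2 14.96 to 15.02 in Sox17-GOF and 15.30 to 15.34 in control islets. Sums in this text are the log2 of signals added on the linear scale, so the brightest genes weigh most. In whole islets, fewer cells of a type and less RNA per cell cannot be told apart. Markers of acinar cells, which also have an extensive ER, summed to 16.01, 16.74 and 17.01 in Sox17-GOF islets, against 16.84, 16.59 and 16.63 in control islets, so both the lowest and the highest sum belonged to Sox17-GOF arrays. No marker of these lists was at background on all arrays. Arrays of one group correlated at 0.984 to 0.991.

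Ern1, Herpud1 and Wfs1 were 1.53- to 1.57-fold lower in Sox17-GOF islets, and no gene of the list was higher. Of the 38 genes, 3 were lower and 35 did not pass the test, where 5.21% of all 19937 genes passed, 2.44% lower and 2.77% higher (limma, Benjamini-Hochberg adjusted p under 0.05). The log2 fold changes lay between -0.65 (Ern1) and 0.33 (Derl3), with a median of -0.12, against a median of -0.01 over all genes. They were negative for 29 of the 38 genes and for 10550 of all genes. At an unadjusted p under 0.05, 9 of the 38 were lower and none was higher, where 10.7% and 8.93% of all genes were. The 3 Sox17-GOF arrays lay wholly below the 3 control arrays for 10 genes of the list and wholly above them for none, against 14.2% and 11.3% of all genes. For 29 of the 35 genes that did not pass, the 95% interval lay within a 1.5-fold change in either direction, as it did for 16594 of the 18898 genes that did not pass in all. At the thresholds of the study's methods, 1.3-fold and an unadjusted p under 0.05 by the methods' t-test, 4 genes were lower (Dnajb9, Ern1, Herpud1 and Wfs1) and none was higher, where 3.54% and 3.88% of all genes were. With that test after Benjamini-Hochberg adjustment over all probe sets with a symbol, none of the 3 calls was kept. The part of the lower β cell markers in the lower levels of Ern1, Herpud1 and Wfs1 was not tested.

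**Figure D1:**
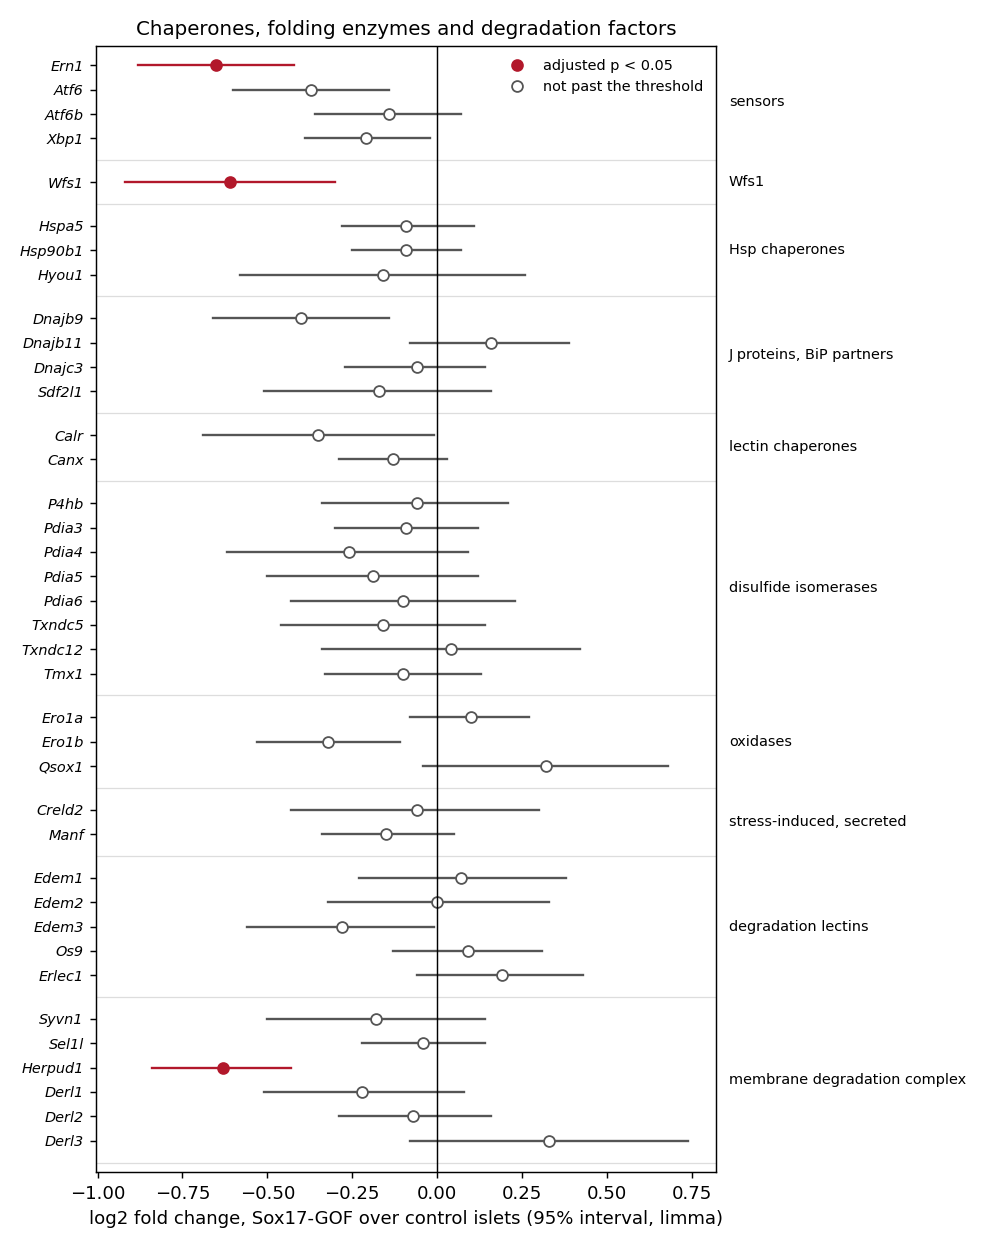
Log2 fold change of each of the 38 genes, Sox17-GOF over control islets, with the 95% interval from limma (3 arrays a group), grouped by role down the vertical axis. Filled points passed an adjusted p of 0.05. Ern1, Wfs1 and Herpud1 lie near -0.6 and apart from the others, most of which lie between -0.4 and 0.2.

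Among the sensors, Ern1 was lower in Sox17-GOF islets, and the 3 other genes of this group had smaller negative values that did not pass. Ern1, which encodes the kinase and endoribonuclease IRE1α, read 8.49, 8.73 and 8.42 in Sox17-GOF islets, against 9.25, 9.16 and 9.19 in control islets. All Sox17-GOF arrays were below all control arrays, and the controls lay within 0.10 of each other. Ern1 was 1.57-fold lower (8.55 ± 0.16 against 9.20 ± 0.05, SD, n = 3 each), a log2 fold change of -0.65 ± 0.10 SE (95% interval -0.88 to -0.42, limma adjusted p = 0.0126). Atf6, the sensor that is cleaved to a transcription factor, read 10.55, 10.65 and 10.39 in Sox17-GOF islets, against 11.01, 10.91 and 10.78 in control islets. The groups did not overlap, but the difference of -0.37 ± 0.10 SE had a limma adjusted p of 0.0850. Xbp1, the factor whose mRNA IRE1α splices, read 8.97, 8.89 and 8.88 in Sox17-GOF islets, against 9.19, 9.15 and 9.02 in control islets. Its groups did not overlap either, with a difference of -0.21 ± 0.08 SE (limma adjusted p = 0.215), and the probe set gives 1 level for the gene with no measure of splicing. Atf6b, the related sensor, had a log2 fold change of -0.14. Without control replicate 1 or control replicate 2 the adjusted p of Ern1 was 0.0578 and 0.0550.

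Wfs1 encodes wolframin, a protein of the ER membrane that restrains the stress response and whose loss in people causes Wolfram syndrome with diabetes. It read 7.99, 7.57 and 7.49 in Sox17-GOF islets, against 8.37, 8.29 and 8.23 in control islets. All Sox17-GOF arrays were below the controls, and Sox17-GOF replicate 1 was nearest to them. Wfs1 was 1.53-fold lower (7.68 ± 0.27 against 8.30 ± 0.07, SD, n = 3 each), a log2 fold change of -0.61 ± 0.13 SE (95% interval -0.92 to -0.30, limma adjusted p = 0.0439). This was the weakest of the 3 calls. It was lost without any 1 array other than Sox17-GOF replicate 1, with adjusted p of 0.130 when Sox17-GOF replicate 2 was left out, 0.0912 for Sox17-GOF replicate 3, and 0.150, 0.143 and 0.104 for control replicates 1, 2 and 3. It was also lost with all probe sets tested (adjusted p = 0.103). By quantitative RT-PCR, the paper reports a transcript it lists as Wfs as significantly lower after Sox17 overexpression of the same length. The paper does not state whether the RNA for that assay came from the samples on these arrays.

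**Figure D2:**
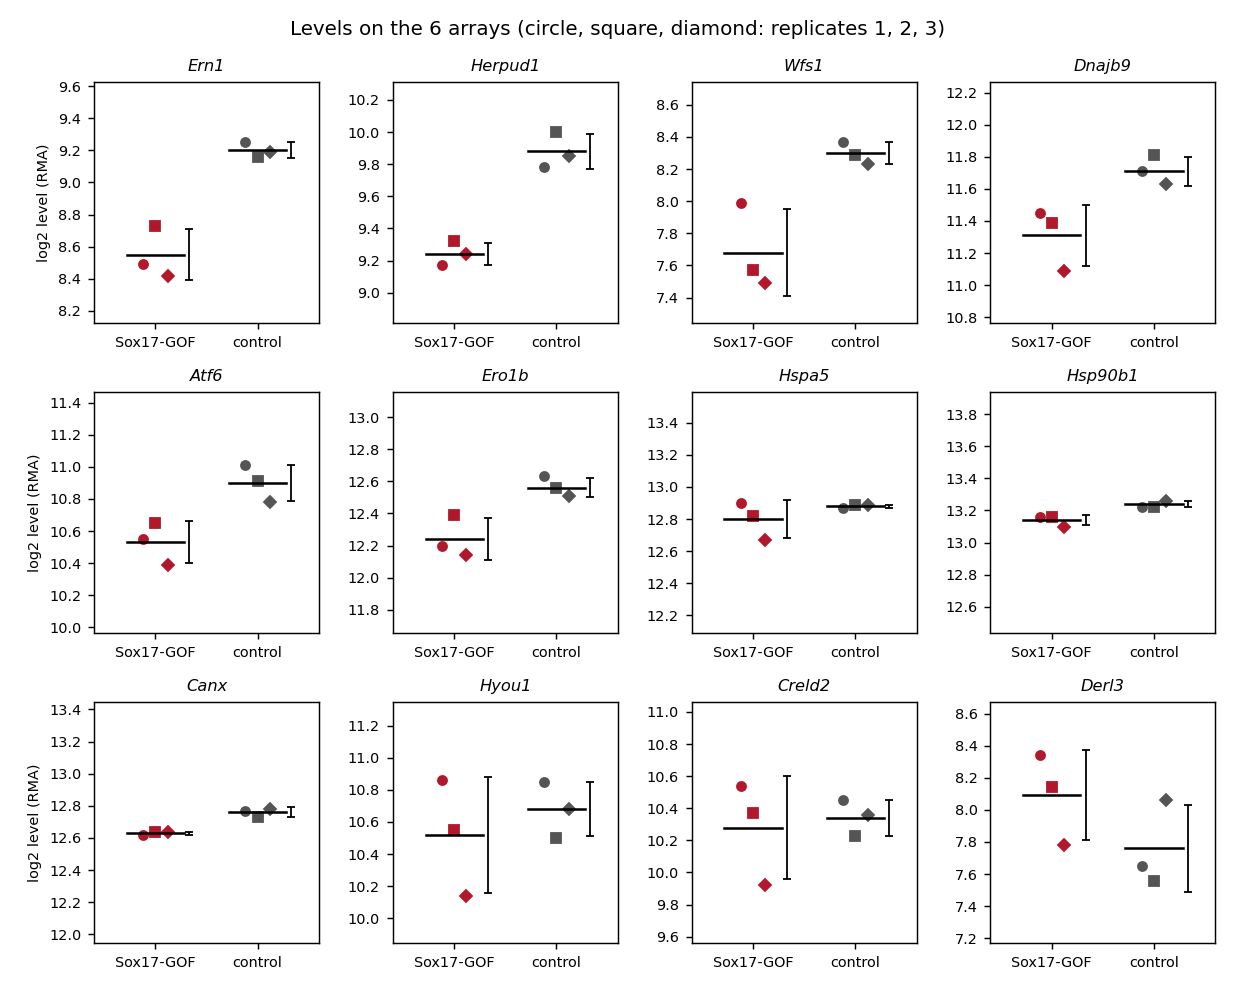
Log2 level on each array for 12 of the genes, Sox17-GOF on the left and control on the right of each panel, with the mean (line) and the SD (bar) of 3 arrays. Every panel spans the same log2 range. Ern1, Herpud1 and Wfs1 show separate groups, and Hspa5, Hsp90b1 and Canx differ by little. Hyou1 and Creld2 spread widely among the Sox17-GOF arrays, and Derl3 spreads widely in both groups.

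Hspa5, Hsp90b1 and Hyou1, the Hsp70, Hsp90 and Hsp110 family chaperones, did not pass the test, and the intervals of all 3 lay within 1.5-fold. Hspa5, which encodes BiP, the chaperone that also keeps the sensors inactive, read 12.90, 12.82 and 12.67 in Sox17-GOF islets, against 12.87, 12.89 and 12.89 in control islets. The groups overlapped through Sox17-GOF replicate 1, and the difference was -0.09 ± 0.08 SE (95% interval -0.28 to 0.11, limma adjusted p = 0.656). Hsp90b1, which encodes GRP94, read 13.16, 13.16 and 13.10 in Sox17-GOF islets, against 13.22, 13.22 and 13.26 in control islets. The arrays did not overlap, yet the difference was small, -0.09 ± 0.07 SE (95% interval -0.25 to 0.07, limma adjusted p = 0.533). Hyou1, which encodes the nucleotide exchange factor GRP170, read 10.86, 10.55 and 10.14 in Sox17-GOF islets, against 10.85, 10.50 and 10.68 in control islets. Only Sox17-GOF replicate 3 lay below the control range. The difference of -0.16 ± 0.18 SE was 0.03 without that array.

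Of the 4 J proteins and partners of BiP none passed, and their log2 fold changes ran from -0.40 to 0.16. Dnajb9, which encodes ERdj4, a cochaperone that brings BiP to IRE1α and to substrates of degradation, read 11.45, 11.39 and 11.09 in Sox17-GOF islets, against 11.71, 11.81 and 11.63 in control islets. The groups did not overlap, and the difference of -0.40 ± 0.11 SE (1.32-fold) had a limma adjusted p of 0.0917. Dnajc3, the cochaperone p58IPK, whose loss causes diabetes in mice, read 12.75, 12.75 and 12.51 in Sox17-GOF islets, against 12.74, 12.71 and 12.76 in control islets. Sox17-GOF replicate 3 alone was low, and the difference was -0.06 ± 0.09 SE. Dnajb11, which encodes ERdj3, read 11.59, 11.51 and 11.27 in Sox17-GOF islets, against 11.33, 11.21 and 11.36 in control islets. Its first 2 Sox17-GOF arrays were above all controls and the third was inside their range (0.16 ± 0.10 SE). Sdf2l1, a BiP partner, had a difference of -0.17 ± 0.14 SE.

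The lectin chaperones calreticulin and calnexin hold glycoproteins while they fold. Calr read 11.22, 10.81 and 10.73 in Sox17-GOF islets, against 11.43, 11.10 and 11.28 in control islets. The groups overlapped through Sox17-GOF replicate 1, and the difference was -0.35 ± 0.15 SE (95% interval -0.69 to -0.01, limma adjusted p = 0.252). Canx read 12.62, 12.64 and 12.64 in Sox17-GOF islets, against 12.77, 12.73 and 12.78 in control islets. Every Sox17-GOF array was below every control array, by a difference of -0.13 ± 0.07 SE (95% interval -0.29 to 0.03, limma adjusted p = 0.369).

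None of the 8 disulfide isomerases (P4hb, Pdia3, Pdia4, Pdia5, Pdia6, Txndc5, Txndc12 and Tmx1) passed, and no pair of groups was free of overlap. Their log2 fold changes ran from -0.26 (Pdia4) to 0.04 (Txndc12) with a median of -0.10. P4hb, which encodes the classical disulfide isomerase PDI, read 11.47, 11.69 and 11.25 in Sox17-GOF islets, against 11.59, 11.45 and 11.55 in control islets. The Sox17-GOF arrays lay on both sides of the controls (-0.06 ± 0.12 SE, 95% interval -0.34 to 0.21). Pdia4 read 11.08, 10.89 and 10.50 in Sox17-GOF islets, against 11.20, 10.93 and 11.12 in control islets, with replicate 3 lowest again. A second probe set of Pdia4, with lower levels of 4.93 to 5.43, differed by -0.10 ± 0.14 SE.

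The 3 oxidases took different signs, and none passed. Ero1b, the ERO1 form enriched in islets, which reoxidizes disulfide isomerases, read 12.20, 12.39 and 12.14 in Sox17-GOF islets, against 12.63, 12.56 and 12.51 in control islets. The groups did not overlap, and the difference was -0.32 ± 0.09 SE (95% interval -0.53 to -0.11, limma adjusted p = 0.0951). Among the alternatives it passed only with an intensity trend in the variance (adjusted p = 0.0467). Ero1a, the widely expressed form, differed by 0.10 ± 0.08 SE. Qsox1, a sulfhydryl oxidase of the later secretory pathway, read 8.72, 8.47 and 8.12 in Sox17-GOF islets, against 8.06, 8.01 and 8.28 in control islets. Its first 2 Sox17-GOF arrays were above all controls and replicate 3 was not (0.32 ± 0.15 SE, limma adjusted p = 0.325).

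Manf and Creld2 encode soluble proteins induced by ER stress, and neither passed. Manf, a factor that β cells need for their survival in mice, read 11.64, 11.59 and 11.42 in Sox17-GOF islets, against 11.72, 11.65 and 11.73 in control islets. The groups did not overlap, with a difference of -0.15 ± 0.08 SE (limma adjusted p = 0.407). Creld2 read 10.54, 10.37 and 9.92 in Sox17-GOF islets, against 10.45, 10.23 and 10.36 in control islets. Replicate 3 of the Sox17-GOF islets stood below all the others (-0.06 ± 0.16 SE).

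Of the 11 genes of ERAD, Herpud1 was lower and 10 did not pass. Herpud1 encodes HERP, a short-lived membrane protein that brings substrates to the HRD1 complex and is strongly induced by ER stress. It read 9.17, 9.32 and 9.24 in Sox17-GOF islets, against 9.78, 10.00 and 9.85 in control islets. The groups were well apart, and both were narrow. Herpud1 was 1.55-fold lower (9.24 ± 0.07 against 9.88 ± 0.11, SD, n = 3 each), a log2 fold change of -0.63 ± 0.09 SE (95% interval -0.84 to -0.43, limma adjusted p = 0.00902). It passed without each single array in turn, with an adjusted p of at most 0.0430. Its partners in the membrane complex did not pass: Syvn1, the ubiquitin ligase HRD1, differed by -0.18 ± 0.14 SE, Derl1 by -0.22 ± 0.13 SE and Derl2 by -0.07 ± 0.10 SE. Sel1l, the adaptor of HRD1, read 9.78, 9.82 and 9.85 in Sox17-GOF islets, against 9.95, 9.78 and 9.84 in control islets. These groups overlapped, with a difference of -0.04 ± 0.08 SE (95% interval -0.22 to 0.14). Derl3, the derlin of secretory cells, read 8.34, 8.14 and 7.78 in Sox17-GOF islets, against 7.65, 7.56 and 8.06 in control islets. It had the highest log2 fold change of the list, yet its groups overlapped (0.33 ± 0.18 SE, 95% interval -0.08 to 0.74, limma adjusted p = 0.374).

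The lectins that pick glycoproteins for degradation had log2 fold changes from -0.28 (Edem3) to 0.19 (Erlec1), with a median of 0.07. Edem1, a mannosidase-like protein, read 9.20, 9.65 and 9.20 in Sox17-GOF islets, against 9.34, 9.24 and 9.25 in control islets. Sox17-GOF replicate 2 lay above the controls and the other two just below them (0.07 ± 0.13 SE). Erlec1, a lectin that binds trimmed glycans, read 11.01, 11.21 and 10.88 in Sox17-GOF islets, against 10.77, 10.84 and 10.94 in control islets. Its groups overlapped, with a difference of 0.19 ± 0.10 SE (limma adjusted p = 0.394). Edem2 differed by 0.00 ± 0.14 SE and Os9, a lectin of the same complex, by 0.09 ± 0.09 SE.

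Sox17-GOF replicate 3 was low for most of these genes. It was the lowest of all 6 arrays for 28 of the 38 genes, against 22.4% of all genes, and the lowest of the Sox17-GOF arrays for 33 (86.8%), against 38.0% of all genes. Its value minus the mean of Sox17-GOF replicates 1 and 2 had a median of -0.24 over the list, against -0.01 over all genes, and ran from -0.56 (Hyou1) and -0.54 (Creld2) to 0.05 (Sel1l). Herpud1 (0.00) and Canx (0.02) were not low in this array. Among the Sox17-GOF arrays, replicate 3 was also the lowest for related genes outside the list. This held for all but Srp9 and Srp19 of 32 measured genes of signal recognition, the translocon, signal peptidase and oligosaccharyltransferase. The range of the Sox17-GOF arrays was wider than that of the controls for 33 of the 38 genes, with a median range of 0.34 in Sox17-GOF and 0.17 in control islets. Over all genes it was wider for 58.3%, with median ranges of 0.22 in Sox17-GOF and 0.19 in control islets. The summed level of the 38 genes was 16.33, 16.32 and 16.11 in Sox17-GOF islets, against 16.41, 16.34 and 16.39 in control islets. Without replicate 3 the median log2 fold change of the list was -0.04, against -0.12 with all arrays. Ern1 and Herpud1 then had -0.59 and -0.63, while Qsox1 and Derl3 both had 0.48. In the same array the sums of acinar, duct and stellate cell markers were at their highest. The acinar sum was 17.01 there (15 of 17 markers measured), and only Bhlha15, a transcription factor of secretory cells, passed among them, at 7.56, 7.75 and 7.31 in Sox17-GOF islets, against 8.30, 8.05 and 8.20 in control islets (-0.64 ± 0.13 SE, limma adjusted p = 0.0312). The duct sum was 10.66, 10.87 and 11.15 in Sox17-GOF islets, against 10.93, 10.89 and 10.93 in control islets, with none of 5 markers passing. The stellate cell sum was 10.62 to 11.08 in Sox17-GOF and 10.18 to 10.70 in control islets, and none of 9 markers passed. Plasma cell markers summed to 8.65 to 8.92 in Sox17-GOF and 8.66 to 9.33 in control islets. Of 7 endothelial markers 1 passed, Kdr, a receptor for VEGF, at 8.15, 7.90 and 7.87 in Sox17-GOF islets, against 8.61, 8.53 and 8.81 in control islets (-0.68 ± 0.11 SE, limma adjusted p = 0.0160), and the list summed to 10.80 to 10.93 in Sox17-GOF and 10.92 to 11.04 in control islets. Of 8 macrophage and leukocyte markers 1 passed, Cd79a, a part of the B cell receptor, at 5.97, 5.78 and 5.95 in Sox17-GOF islets, against 6.53, 6.38 and 6.41 in control islets (-0.54 ± 0.09 SE, limma adjusted p = 0.0158), with sums of 9.56 to 9.88 in Sox17-GOF and 9.43 to 10.42 in control islets. The part of these cell types in the levels of the 38 genes was not tested.

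**Figure D3:**
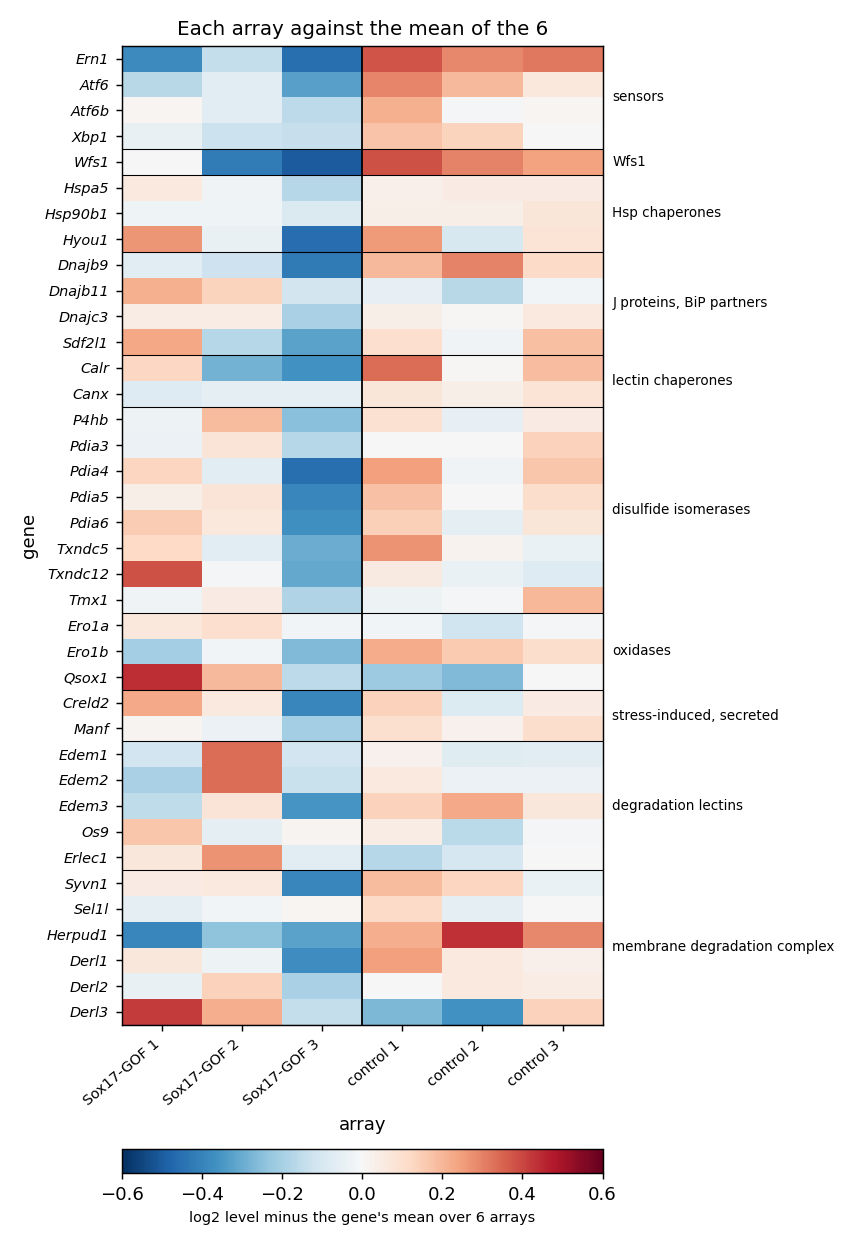
Log2 level of each gene on each array minus that gene's mean over the 6 arrays, Sox17-GOF arrays on the left and control arrays on the right, genes grouped by role. The column of Sox17-GOF replicate 3 is below the mean for most genes, and the rows of Ern1, Wfs1 and Herpud1 are low in all or nearly all Sox17-GOF arrays and high in all control arrays.

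**Figure D4:**
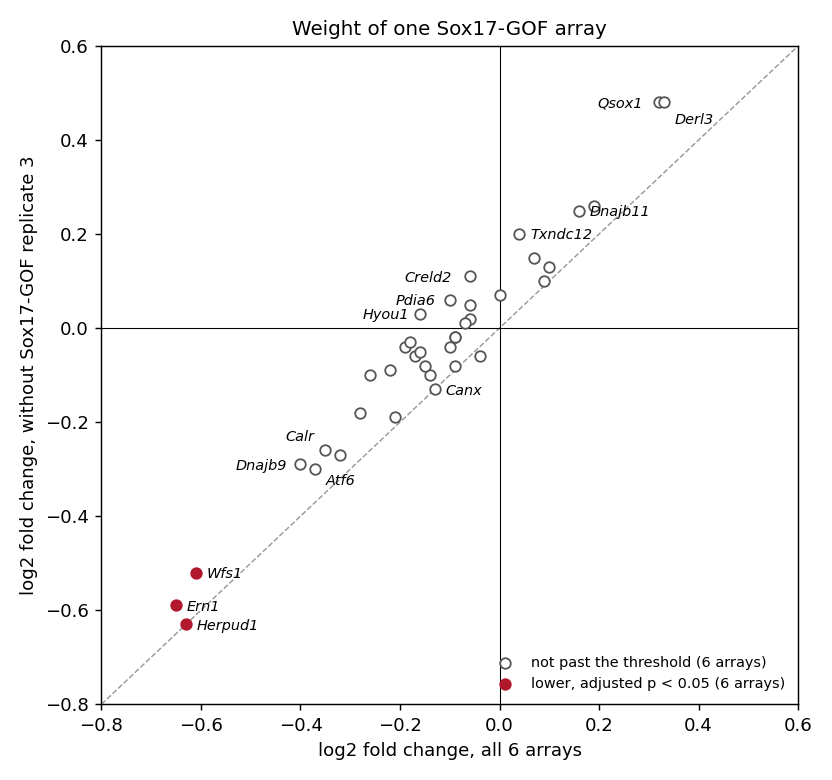
Log2 fold change of each gene (Sox17-GOF over control) with all 6 arrays on the horizontal axis and without Sox17-GOF replicate 3 on the vertical axis, with the line of equal values dashed. Nearly all points lie above the line, and Ern1, Wfs1 and Herpud1 keep values of -0.52 or lower.

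The genes with ERSE in their windows were compared with the rest of the list as a description. Of the 10 genes with ERSE none passed, and their log2 fold changes ran from -0.35 to 0.33 with a median of -0.10. The 23 genes with a window and no exact ERSE match also had a median of -0.10. They held the 3 lower genes, of which Herpud1 carries ERSE-II. Variants of ERSE were not searched, so these 23 genes may not all lack the element. Outside the list, 18 of 37 genes with ERSE or ERSE-II were measured. They had a median of -0.06 (range -0.33 to 0.39), and none passed. Over all genes 5.21% passed, so sets this small can hold none that pass.

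Other genes of the same pathways were taken from 5 lists. Of 123 measured genes 119 did not pass, 2 were lower and 2 higher, where 2.44% of all genes were lower and 2.77% higher. The median log2 fold change of the 123 genes was -0.08. Both lower genes were transcription factors in the list of the PERK arm and shared stress factors, which held 18 measured genes with a median of -0.16. Ddit3, which encodes CHOP, read 8.83, 8.98 and 9.06 in Sox17-GOF islets, against 9.74, 9.70 and 9.63 in control islets (-0.73 ± 0.09 SE, limma adjusted p = 0.00472). Creb3l1, which encodes OASIS, an ER-bound factor related to ATF6, read 7.77, 7.79 and 8.06 in Sox17-GOF islets, against 8.56, 8.54 and 8.61 in control islets (-0.70 ± 0.10 SE, limma adjusted p = 0.00894). Both had groups well apart. Their calls were lost with the methods' t-test (adjusted p = 0.0771 for Ddit3 and 0.0957 for Creb3l1).

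In the other lists, the 32 genes of signal recognition, the translocon, signal peptidase and oligosaccharyltransferase held none that passed, with a median of -0.15, and neither did the 13 genes of the calnexin cycle and glycan trimming (-0.08). Among 29 other ER oxidoreductases, prolyl isomerases and nucleotide exchange factors, Txndc16, a thioredoxin-domain protein of the ER, was higher, at 9.41, 8.82 and 8.95 in Sox17-GOF islets, against 8.34, 8.24 and 8.21 in control islets (0.79 ± 0.15 SE, limma adjusted p = 0.0277). Among 31 genes of the cytosolic and membrane steps of ERAD, Jkamp, a membrane protein that links the proteasome to the ER, was higher, at 8.65, 8.51 and 8.30 in Sox17-GOF islets, against 7.98, 7.91 and 7.99 in control islets (0.53 ± 0.10 SE, limma adjusted p = 0.0295). Every Sox17-GOF array of both genes was above every control array. The calls of both depended on single arrays: Txndc16 passed in 3 of 6 analyses that left out an array and Jkamp in 1 of 6, with adjusted p of up to 0.109 and 0.119. Both were also lost with all probe sets tested (0.0736 for Txndc16 and 0.0733 for Jkamp) and with the methods' t-test (0.182 and 0.151), and Jkamp with the replicate number as a block (0.0651).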

How the data were processed

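RNA of 3 Sox17-GOF and 3 control islet samples was measured on 1 array each. The authors deposited log2 values after RMA (background correction, quantile normalization and median polish). RMA was run in GeneSpring 10.1 by the methods but in Affymetrix Expression Console by the submitters' processing notes, and it was not settled which was used. Groups followed the genotype labels. The 22961 of 34760 probe sets that had a symbol were tested in limma 3.58.1 (R 4.3.3) with lmFit and eBayes, and p-values were adjusted over all of them by Benjamini-Hochberg at a threshold of 0.05. A gene is its brightest single-symbol probe set. The lowest 20 percent of values (under 4.63) counted as dim. The genes and lists were chosen with earlier results of these data known. Array values are given for genes that passed, the 3 highest and 3 lowest log2 fold changes, the leading genes of each role and a few more picked after their values were seen. Each array was left out in turn. Other alternatives were a variance trend with intensity, weights for arrays, centring by median, a further quantile normalization, testing all probe sets or none that were dim, averaging probe sets by gene, a block for the replicate number and the t-test of the methods. The procedure was tested on simulated data, where 35 of 100 changes of 0.5 log2 and 82 of 100 changes of 1 log2 were recovered. The number of arrays limits the precision. Some genes are not reported here.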

Additional observations from a re-analysis of the deposited data

How the results depend on the processing

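The count of lower genes in the list was 3, and it was 4 with an intensity trend, 2 with all probe sets and 3 with array weights, median centring, quantile normalization, dim probe sets left out or probe sets averaged by gene. With the methods' t-test after Benjamini-Hochberg it was 0 (27 of all genes lower and 38 higher), and Sox17 kept its log2 fold change of 0.67 with an adjusted p of 0.0906. Leaving out each array in turn gave 1 to 3 lower genes, with 1 without control replicate 1 or control replicate 2. No setting made a gene of the list higher. The median of the list lay between -0.19 and -0.04 when an array was left out. Some small differences that passed no test changed sign: Edem2 to -0.02 with median centring and Sel1l to 0.01 with quantile normalization. Without single arrays, Edem2 ran from -0.16 to 0.10, Sel1l from -0.08 to 0.01, Txndc12 from -0.14 to 0.20, Edem1 from -0.08 to 0.15, Hyou1 from -0.33 to 0.03, Dnajc3 from -0.10 to 0.02, P4hb from -0.17 to 0.05, Pdia6 from -0.20 to 0.06, Creld2 from -0.20 to 0.11 and Derl2 from -0.15 to 0.01. The causes were not tested. Over all genes, the main analysis called 552 higher and 487 lower, against 501 and 550 with median centring, 669 and 430 with quantile normalization, 267 and 190 with all probe sets, and 230 to 586 higher and 130 to 409 lower without single arrays.

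The labels number the replicates and do not say whether same-numbered samples were paired. Deviations of same-numbered arrays from their group means correlated at 0.04, -0.01 and -0.05, which cannot show how the samples were prepared. With the replicate number as a block, 3 genes of the list were lower and none was higher, and 391 of all genes were higher and 263 lower.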
